A study of Mus musculus with 342 samples.

Results

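Livers of CC008/GeniUnc mice given TAK-875 were compared with livers of CC008/GeniUnc mice given vehicle alone. The samples were taken by their line label and dose, which gave 8 of the 342 arrays of the study: 4 from mice dosed with TAK-875 at 600 mg/kg and 4 from vehicle mice at 0 mg/kg. CC008/GeniUnc (CC008 from here on, alias AU8036) is an inbred line of the Collaborative Cross, whose inbred mouse lines each hold a different mosaic of several founder genomes. All mice were males of about 8 to 10 weeks, bought from the University of North Carolina and acclimated for about 7 days. Each received a single oral gavage of 0.5% methylcellulose in water, either alone or carrying the drug, and the liver was collected 24 h later. Mice were randomised by body weight and dosed as vehicle and TAK-875 pairs, and the 4 CC008 pairs (study pairs 89 to 92) are called pairs 1 to 4 here, with vehicle mouse 4 and TAK-875 mouse 4 belonging to pair 4. The whole study held 171 such pairs from 44 lines, 39 lines with 4 pairs and 5 with 3. The comparisons ask how the CC008 liver responded to the drug, whether that response differed from the mean of the 43 other lines, and how the CC008 vehicle liver differed from theirs. Vehicle and treated mice share the line, which is a single inbred genotype, and the results describe that genotype, in males, at a single dose and time.

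TAK-875 (fasiglifam) activates FFAR1, a fatty acid receptor of insulin-secreting cells, and was developed to raise insulin secretion in diabetes but stopped in clinical trials because of liver injury. Like fatty acids it carries a carboxylic acid group, and it is known to inhibit hepatic bile acid transporters. The liver genes followed here include targets of PPARA, the nuclear receptor that senses fatty acids and switches on their oxidation in peroxisomes, mitochondria and microsomes, and the genes that make and move bile acids.

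Expression was measured on Affymetrix mouse 3' expression arrays, a single labelled RNA per array, and every level below is a log2 RMA value: a step of 1 is a 2-fold step, and levels of different genes are not comparable because each probe set binds with its own strength. The 16397 probe sets named 9093 genes. The number of mice limits the precision. The mice are separate animals, and the p-values rest on the spread between mice or pairs within a line. Except in the fit of CC008 arrays alone, that spread is pooled over all lines of the study. It is not the spread of the CC008 pairs themselves. A small p-value thus does not show that the CC008 pairs were alike. The p-values do not measure the spread between lines. Array medians ran from 5.40 to 6.22 over the study and from 5.852 to 6.056 in CC008. In 24 arrays the mean correlation with the other arrays of their line and treatment was below 0.95, none of them from CC008. Hepatocyte defining markers, such as albumin (Alb, 13.47 to 13.55), had a mean between 12.46 and 12.56 in all 8 CC008 livers, inside the range of 12.00 to 12.60 of the 167 vehicle mice of the other lines. Because these are whole livers, fewer cells of a type and less RNA per cell cannot be told apart.

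Of the 8 livers, 2 stood apart from their group, and both touch the results that follow. Vehicle mouse 4 differed from the mean of the other CC008 vehicle mice by more than 1 log2 unit in 659 genes, against 114, 130 and 207 genes for mice 1 to 3, each set against the rest of its group. Its acute-phase genes, which the liver makes in inflammation, were high: serum amyloid Saa3 stood at 6.43, 6.65, 6.14 and 12.77 in vehicle mice 1 to 4, and the lipopolysaccharide co-receptor Cd14 at 5.12, 3.95, 4.68 and 10.06. No vehicle mouse of the 167 from other lines was above it for Saa3, Cd14, the iron-binding Lcn2 (12.90) or the NF-kappa-B cofactor Nfkbiz (10.27). The 34 acute-phase genes averaged 9.97, 10.02, 9.42 and 11.58, and 31 of them were higher in mouse 4 than in any of mice 1 to 3. The 30 genes of the unfolded protein response, which answer misfolded protein in the endoplasmic reticulum, averaged 9.62, 9.80, 9.61 and 10.28 in the same order.

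In that vehicle liver several metabolic lists were low. Targets of CAR and PXR, receptors that induce drug metabolism, averaged 8.33, 8.14, 8.37 and 7.31 in vehicle mice 1 to 4, and the 17 bile acid synthesis genes 9.12, 9.13, 9.20 and 8.51. All 167 vehicle mice of the other lines were above mouse 4 for both lists and for the 53 respiratory chain genes (10.78, 10.83, 10.82 and 10.47). The peroxisomal PPARA targets averaged 8.23, 8.16, 8.21 and 7.71. The liver with the highest acute-phase level was thus also the lowest CC008 vehicle liver for these 4 lists. Of the markers of other cells, the 6 class II antigen presentation genes averaged 7.18, 6.86, 7.46 and 6.15, with 5 of the 6 lowest in mouse 4. The 8 neutrophil genes averaged 5.68, 4.68, 4.43 and 5.76, with mouse 1 near mouse 4, and the 17 Kupffer cell and macrophage genes 6.26, 5.92, 6.06 and 6.27. Their part in the results was not tested.

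TAK-875 mouse 3 was apart in another way: 503 genes differed by more than 1 log2 unit from the mean of the other TAK-875 mice, against 115, 192 and 176 for mice 1, 2 and 4. The 16 cholesterol synthesis genes averaged 8.80, 9.54, 6.63 and 9.20 in TAK-875 mice 1 to 4, and all 16 were lowest in mouse 3. The 23 genes of fatty acid and triglyceride synthesis averaged 9.26, 10.08, 7.93 and 9.59, with 19 of them lowest there. Peroxisomal PPARA targets went the opposite way, at 8.37, 8.22, 9.35 and 8.28, and none of the 167 TAK-875 mice of the other lines reached mouse 3. Thrsp, a regulator of fat synthesis, was at 3.09 in this mouse and between 10.14 and 12.30 in the other 3, and fatty acid synthase (Fasn) was at 7.11 against 10.90 to 12.11. All 167 TAK-875 mice of the other lines were above it for both genes. The 17 bile acid synthesis genes averaged 9.20, 9.20, 8.74 and 9.17 in TAK-875 mice 1 to 4. For that mean too, all 167 were above mouse 3, the lowest of them narrowly, at 8.76.

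**Figure D1:**
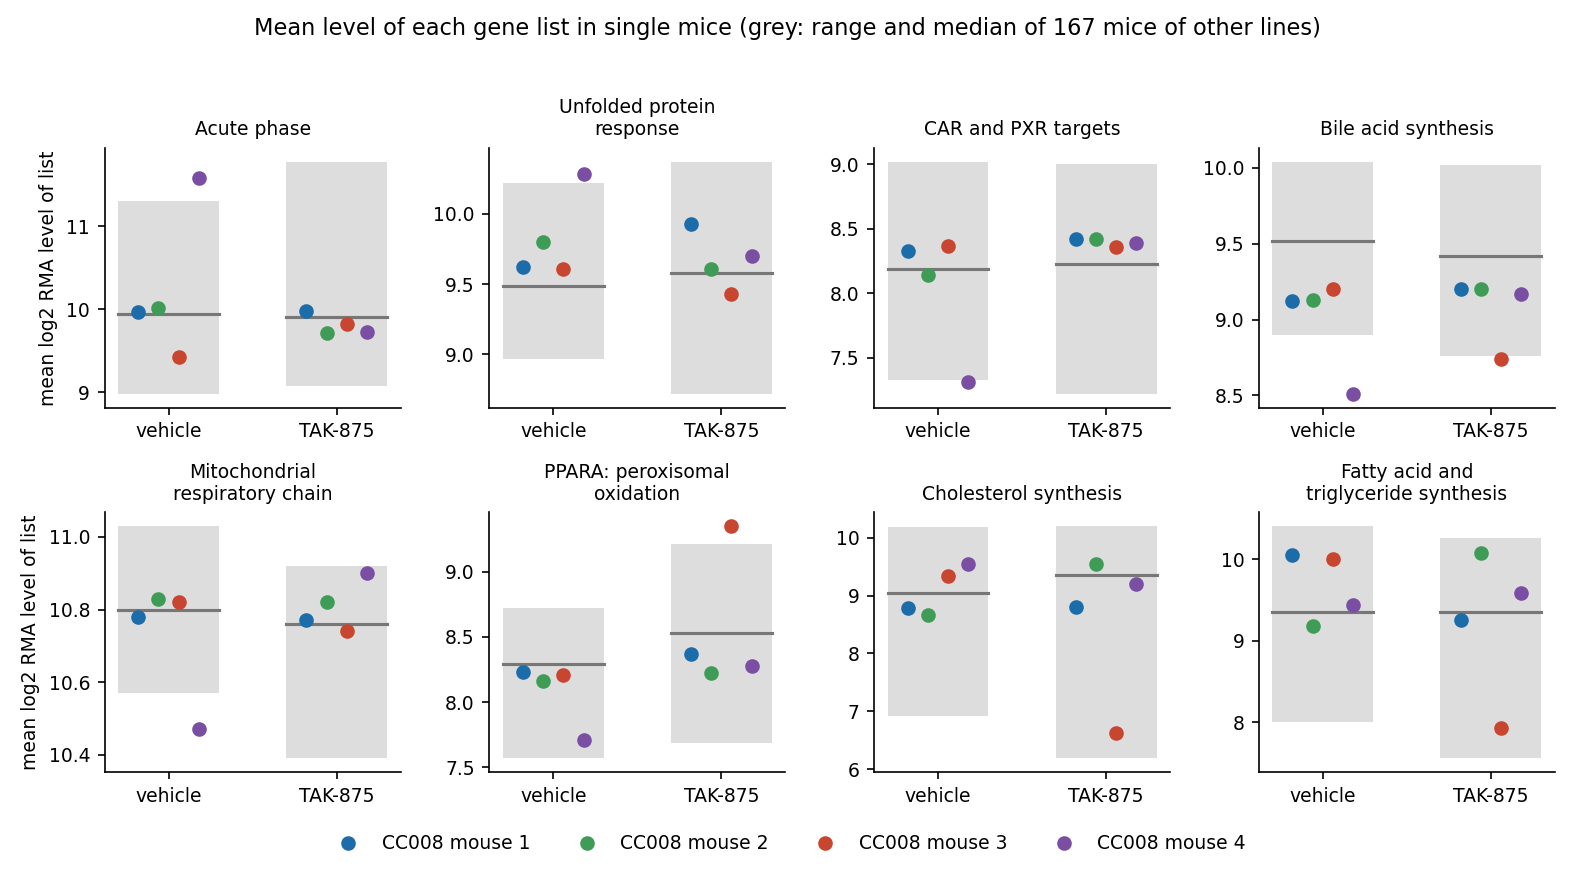
Mean log2 RMA level of 8 gene lists in each CC008 mouse (coloured points, mice 1 to 4 of vehicle and of TAK-875), over the range (grey bar) and median (grey line) of the 167 mice of other lines under the same treatment; vertical scales differ between panels. Vehicle mouse 4 lies above the grey range for acute-phase genes (11.58) and the unfolded protein response (10.28). It lies below for bile acid synthesis (8.51), the respiratory chain (10.47) and, narrowly, CAR and PXR targets (7.31). TAK-875 mouse 3 lies above the range for peroxisomal oxidation (9.35) and narrowly below it for bile acid synthesis (8.74).

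With TAK-875 a small number of genes rose in the CC008 liver, among them the fatty acid oxidation genes Eci1, Cyp4a10 and Decr2 and the epoxide- and quinone-metabolising enzymes Ephx1, Ephx2 and Nqo1. Of 9093 genes, 63 rose (0.693%) and 3 fell (0.033%) at a Benjamini-Hochberg adjusted p under 0.05 in a limma fit of the pair differences. Among the 63 risers, 9 were on the 3 lists of PPARA targets, which hold 55 measured genes. Of the 63, 11 rose by at least 1 log2 unit. Vehicle mouse 4 was the lowest of the vehicle mice in 56 of the 63 risers, against 39.7% of all genes. Without pair 4 the fit called 5 genes higher (0.055%) and 3 lower (0.033%), and without pair 3 it called 30 and 2. Of the 66 called genes, 6 kept the call without pair 4 and 23 without pair 3. The direction held for all 66 with any pair left out, but 55 had the same sign in all 4 pairs. For those 55 the direction could not change when a pair was dropped. A fit without the replicate block, which ignores the pairing, called 40 higher. The rises of Eci1, Ephx2, Gm5617 and Gstt2 passed the test in the full data and with any of the 4 pairs left out. A limma fit of the CC008 arrays alone, which uses only the spread of their own pairs, called 0 genes higher and 0 lower. These 4 genes thus did not pass there.

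**Figure D2:**
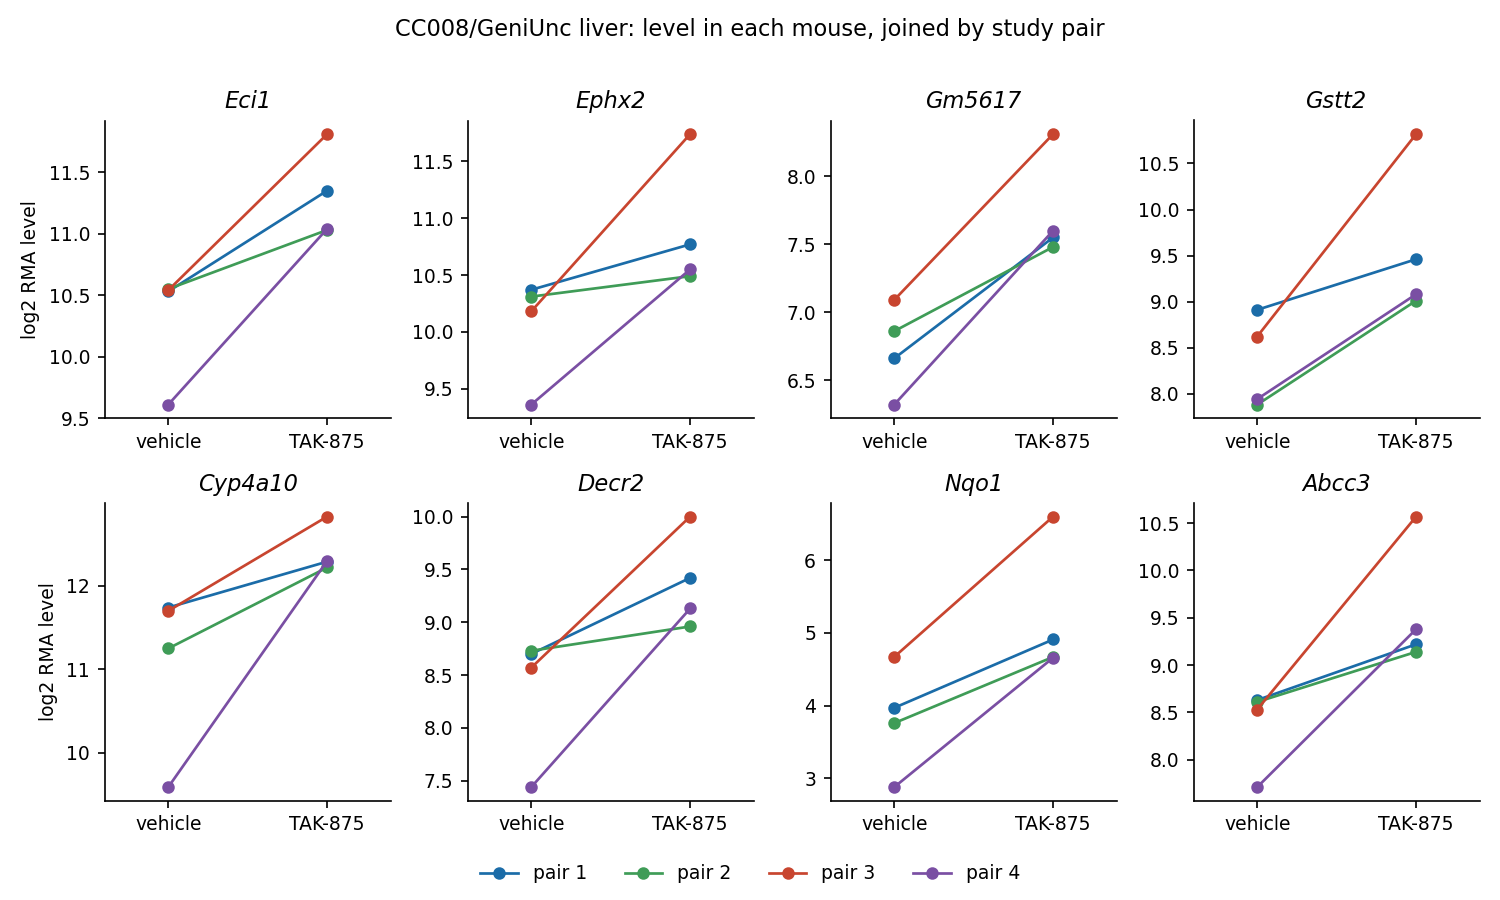
Log2 RMA level of 8 genes that rose in CC008 (a panel each, own vertical scale) in the vehicle and the TAK-875 mouse of each study pair, joined by a line and coloured by pair. Every pair rises in every panel; for Eci1 the vehicle mice lie at 9.61 to 10.55 and the TAK-875 mice at 11.03 to 11.81, and pair 4 (purple) starts lowest in 7 panels.

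Among the mitochondrial PPARA targets, Eci1, the mitochondrial isomerase that lets unsaturated fatty acids enter beta-oxidation, stood at 10.53, 10.55, 10.54 and 9.61 in vehicle mice 1 to 4 and at 11.35, 11.03, 11.81 and 11.04 in TAK-875 mice 1 to 4. All treated mice were above all vehicle mice. The mean rise was 1.00 (SD 0.43 over 4 pairs, 2-fold, adjusted p = 3.64e-09), and 0.86 without pair 4 (adjusted p = 6.51e-05). In the 43 other lines the mean change of Eci1 was 0.43, and CC008 was 2nd of the 44 lines, or 4th without pair 4. Slc25a20, the carrier that brings acylcarnitines into mitochondria, rose by 0.53 (adjusted p = 0.0254), a call lost without pair 3 or pair 4. These were the 2 risers among the 16 mitochondrial members, with a list median of 0.25 against 0.02 over all genes. Acot2 (a mitochondrial acyl-CoA thioesterase) was at 4.66, 4.87, 7.29 and 4.22 and Cpt1a (the gate of mitochondrial fatty acid uptake) at 9.74, 8.91, 11.41 and 9.55 in the treated mice, so that mouse 3 alone was high, and neither passed the test (adjusted p = 0.329 and 0.215).

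The 300-base promoter window of Eci1 is shown because this was the call with the smallest adjusted p, beside that of Cyp2d10, which holds the letters of a PPARA element. The windows run from 250 bases before to 50 after the RefSeq start (build GRCm38.p6), read 5′ to 3′ on the gene's strand. Capitals mark a match to DR1, the element that PPARA binds with RXR, searched on both strands as AGGNCA followed by any single base and AGGNCA again.
Eci1, chr17:24426433-24426732, plus strand: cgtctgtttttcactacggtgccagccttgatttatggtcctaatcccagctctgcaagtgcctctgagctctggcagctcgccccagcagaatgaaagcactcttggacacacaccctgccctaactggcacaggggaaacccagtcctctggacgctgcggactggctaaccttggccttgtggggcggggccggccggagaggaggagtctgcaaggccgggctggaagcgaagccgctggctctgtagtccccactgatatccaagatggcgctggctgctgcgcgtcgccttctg
Cyp2d10, chr15:82407145-82407444, minus strand: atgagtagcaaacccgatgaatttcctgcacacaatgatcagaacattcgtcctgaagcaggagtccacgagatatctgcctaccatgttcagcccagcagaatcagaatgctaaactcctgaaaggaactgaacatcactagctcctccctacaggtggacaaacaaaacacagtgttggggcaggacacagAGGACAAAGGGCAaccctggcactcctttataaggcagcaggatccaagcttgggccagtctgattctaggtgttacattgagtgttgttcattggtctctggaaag
Of 32851 promoter windows, 0.381% held this motif. Of the 63 risers, 53 had a window, and the motif was found in that of Cyp2d10 only, with its first base 57 bases before the start. The shorter AGGTCA, which such an element can contain, was in 16.3% of all windows and in 7 of the 53 (13.2%), and TGACNNNGC, the core that NRF2 binds, in 12.4% and 9 of 53 (17%), each on both strands. These are letter matches and not measured sites. Cyp2d10, a drug-metabolising P450 and named after its values were seen, stood at 11.84, 12.01, 11.98 and 11.47 in vehicle and 12.06, 12.04, 12.32 and 12.09 in TAK-875 mice, without overlap. It rose by 0.31 (adjusted p = 0.0108), a call lost without pair 3 or pair 4.

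In peroxisomes, 4 of 17 members rose and none fell, with a median of 0.46 (0.26 in the other lines). Decr2, a reductase for unsaturated fatty acids, went from 8.70, 8.73, 8.57 and 7.44 to 9.42, 8.96, 10.00 and 9.13, pair by pair. Treated and vehicle mice did not overlap, the mean rise was 1.02 (SD 0.66, adjusted p = 0.000628), and it was 0.80 without pair 4 (adjusted p = 0.175). The thiolase Acaa1b, which makes the last cut of the cycle, went from 11.61, 11.23, 11.77 and 9.40 to 12.02, 11.83, 12.50 and 11.85 (mean 1.05, SD 0.95, adjusted p = 0.00323, 0.58 without pair 4). Its rise in pair 4 was larger than in the other 3, from the lowest vehicle level. Ehhadh, the bifunctional enzyme of the same cycle, went from 10.86, 10.35, 10.52 and 8.82 to 11.28, 10.65, 11.90 and 10.73 (mean 1.00, SD 0.78, adjusted p = 0.00806), with overlap between groups. The other lines averaged 0.81 for Ehhadh, and CC008 was 14th of 44, or 28th without pair 4. Ech1, the dienoyl-CoA isomerase, rose by 0.55 (adjusted p = 0.000631), and its call was lost without pair 3 or pair 4. Without pair 4 none of the 17 passed in limma, while the list median was 0.49; without pair 3, 2 passed and the median was 0.20. By pair the median was 0.41, -0.10, 0.96 and 0.42, and pair 2 was slightly below 0.

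Of the 22 PPARA targets in omega oxidation and lipid handling, 3 rose, with a median of 0.48, and without pair 3 only 1 passed and the median was 0.28. Cyp4a10, the P450 that starts omega oxidation of fatty acids, stood at 11.74, 11.25, 11.70 and 9.59 in vehicle and 12.29, 12.22, 12.83 and 12.30 in TAK-875 mice. The groups did not overlap, and vehicle mouse 4 was lowest by more than 1 log2 unit. Cyp4a10 rose by 1.34 (SD 0.94, 2.54-fold, adjusted p = 1.37e-06), against 0.43 in the other lines, and by 0.89 without pair 4 (adjusted p = 0.0648). Its probe set is of a design that can match more than 1 transcript, so signal from related Cyp4a genes cannot be told apart. Pctp, a phosphatidylcholine transfer protein, rose by 0.85 (adjusted p = 0.0313) and Apoa5, a triglyceride-lowering apolipoprotein, by 0.52 (adjusted p = 0.0462), and both lost the call without pair 3 or pair 4. None of the 22 passed without pair 4.

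Other well-known PPARA targets did not pass. Acot1, a cytosolic acyl-CoA thioesterase, was higher in all 4 pairs, at 6.62, 5.58, 6.37 and 5.12 in vehicle and 7.99, 6.52, 9.45 and 6.46 in TAK-875 mice. Its mean difference of 1.68 (SD 0.96) was close to the 1.37 of the other lines, and the adjusted p was 0.179. Vnn1, a pantetheinase, differed by 0.71 (SD 1.55, adjusted p = 0.459), with vehicle mouse 4 at 10.09 above the treated mouse of its pair at 8.91. Pdk4, which spares glucose by blocking pyruvate oxidation, differed by 0.35 (adjusted p = 0.86). Ephx2, the soluble epoxide hydrolase, did pass; named after its values were seen, it stood at 10.37, 10.31, 10.18 and 9.36 in vehicle and 10.77, 10.49, 11.74 and 10.55 in treated mice. Although the groups did not overlap, pair 2 differed little, and the mean rise was 0.83 (SD 0.65, adjusted p = 1.76e-05).

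The named risers also included enzymes of detoxification. Gstt2, a theta-class glutathione transferase, stood at 8.91, 7.88, 8.62 and 7.94 in vehicle and 9.46, 9.01, 10.82 and 9.08 in TAK-875 mice. Every treated mouse was above every vehicle mouse, the rise was 1.25 (SD 0.69, adjusted p = 9.53e-07), and it was 1.29 without pair 4. Nqo1, the quinone reductase often used as an NRF2 readout, stood at 3.97, 3.76, 4.67 and 2.88 against 4.91, 4.67, 6.60 and 4.66. Treated mouse 3 was highest and the groups overlapped at 4.66 and 4.67, although all 4 pairs rose (mean 1.39, SD 0.54, 2.62-fold, adjusted p = 0.0025). Ephx1, the microsomal epoxide hydrolase, went from 11.13, 10.83, 11.21 and 9.03 to 11.61, 11.40, 12.00 and 11.14 with slight overlap (mean 0.99, adjusted p = 1.22e-06). Nqo1 and Ephx1 were the 2 risers among 25 NRF2 targets, whose median was 0.10, and -0.02 without pair 4. Without pair 4 Nqo1 differed by 1.26 (adjusted p = 0.104) and Ephx1 by 0.62 (adjusted p = 0.0842).

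Abcc3, an export pump of the sinusoidal membrane that carries bile acid conjugates and glucuronides to blood, was the riser among 16 bile acid and organic anion transporters. It stood at 8.63, 8.61, 8.53 and 7.71 in vehicle and 9.22, 9.14, 10.57 and 9.38 in TAK-875 mice. There was no overlap, the mean rise was 1.21 (SD 0.76, adjusted p = 0.000438), the largest of the 44 lines (the 3rd largest without pair 4), and the call was lost without pair 3 or pair 4. The receptor CAR itself (Nr1i3) rose by 1.04 (adjusted p = 0.0347), with 8.26, 8.16, 7.66 and 5.94 in vehicle and 8.69, 7.75, 9.90 and 7.83 in TAK-875 mice. Pair 2 went the other way, and the call was also lost without pair 3 or pair 4. Nr1i3 was the riser among 19 CAR and PXR targets (median 0.35, 0.23 without pair 4 and 0.04 in the other lines). As given above, the CAR and PXR list was low in vehicle mouse 4, and its part in the result was not tested.

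The remaining named risers have mixed roles. Gm5617, a predicted gene, was at 6.66, 6.86, 7.09 and 6.32 in vehicle and 7.55, 7.48, 8.31 and 7.60 in treated mice. The rises of its 4 pairs were alike (mean 1.00, SD 0.31, adjusted p = 6.12e-05), the groups did not overlap, and no other line reached this change. Akr1e1, an aldo-keto reductase, was at 5.73, 3.99, 5.16 and 3.86 against 7.21, 5.70, 5.46 and 5.79, with overlap (mean 1.35, adjusted p = 0.0204, lost without pair 1, 2 or 4). Tef, a clock-output transcription factor, rose by 1.13 (adjusted p = 0.0416, lost without pair 1, 3 or 4), the riser among 18 clock genes. Dbp, of the same family, stood at 3.71, 4.20, 6.19 and 3.07 against 3.96, 6.33, 6.97 and 6.79, a difference of 1.72 that did not pass (adjusted p = 0.351; 1.31 in the other lines). Psma7, a proteasome subunit, rose by 0.43 (adjusted p = 0.0384), the riser among 30 proteasome genes. Cyp2e1, the ethanol-oxidising P450 of pericentral hepatocytes and named after its values were seen, rose by 0.16 (adjusted p = 0.0416). The Psma7 call was lost without pair 2, 3 or 4 and the Cyp2e1 call without pair 3 or 4.

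**Figure D3:**
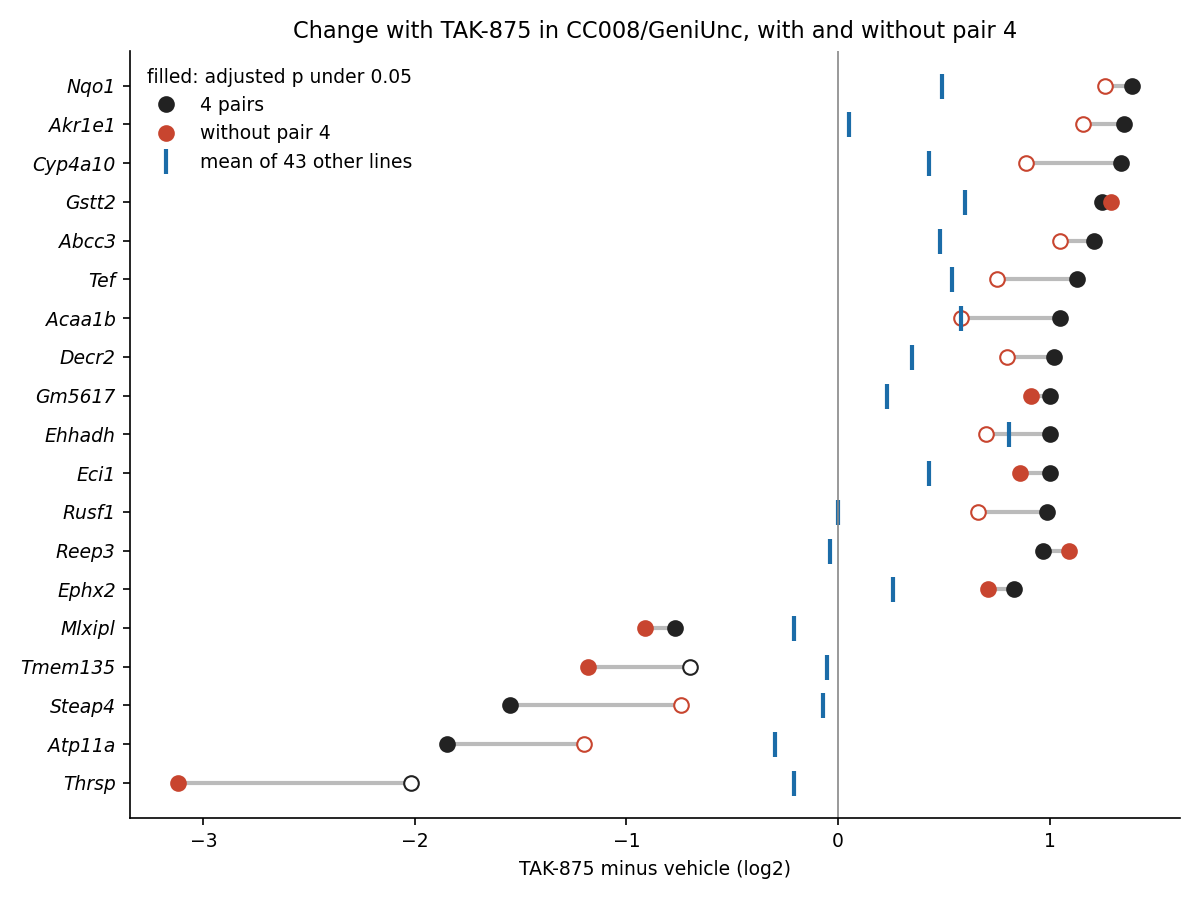
Mean TAK-875 minus vehicle difference (log2, horizontal axis) of 19 genes in CC008 with all 4 pairs (black) and without pair 4 (red); filled circles have an adjusted p under 0.05 and blue ticks mark the mean of the 43 other lines. Eci1 moves from 1.00 to 0.86 and stays filled, whereas Acaa1b moves from 1.05 to 0.58 and Atp11a from -1.85 to -1.20 and become open.

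Of the 3 genes that fell, Mlxipl (ChREBP, the carbohydrate-sensing activator of fat synthesis) kept its call without pair 4. It stood at 10.59, 10.79, 10.82 and 10.77 in vehicle and 10.24, 10.11, 9.13 and 10.43 in TAK-875 mice. The groups did not overlap, and treated mouse 3 was lowest. Mlxipl fell by 0.77 (SD 0.63, adjusted p = 0.00524), the largest fall of the 44 lines; without pair 4 it fell by 0.91 (adjusted p = 0.0185), and without pair 3 it was -0.46 (adjusted p = 0.302). Mlxipl was the call among 23 genes of fatty acid and triglyceride synthesis, whose median was -0.40 against -0.03 in the other lines. Without pair 3 that median was 0.01.
Mlxipl has 2 RefSeq windows, and the upstream window is shown. Capitals mark CACGTG, a core of the E-box to which ChREBP and clock factors bind, searched on both strands. The other window held no CACGTG.
Mlxipl, chr5:135089640-135089939, plus strand: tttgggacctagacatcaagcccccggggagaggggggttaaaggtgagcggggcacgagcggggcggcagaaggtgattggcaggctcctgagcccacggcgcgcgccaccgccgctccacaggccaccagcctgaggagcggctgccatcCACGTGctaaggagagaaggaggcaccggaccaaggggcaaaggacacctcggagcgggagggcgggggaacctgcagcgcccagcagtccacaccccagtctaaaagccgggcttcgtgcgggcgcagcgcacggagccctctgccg
CACGTG was in 7.15% of all windows and was found for 9 of the 53 risers with a window (17%), among them Tef, Nr1i3 and Apoa5. Here too the first share counts windows and the second counts genes.

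Atp11a, a phospholipid flippase, stood at 5.24, 4.71, 5.60 and 7.95 in vehicle and 4.51, 3.90, 3.55 and 4.12 in TAK-875 mice, without overlap. It fell by 1.85 (SD 1.44, adjusted p = 0.0144); without pair 4 the difference was -1.20 (adjusted p = 0.694). Steap4, a metalloreductase on the acute-phase list, was at 8.46, 9.11, 7.81 and 12.14 against 7.90, 8.16, 7.09 and 8.16. It fell by 1.55 (SD 1.63, adjusted p = 0.0355), and without pair 4 the difference was -0.74 (adjusted p = 0.879). In both genes vehicle mouse 4, the liver with the highest acute-phase level, was far above the rest. The largest further decreases in all 4 pairs were those of Rp1 (-1.53, adjusted p = 0.152), Wfdc21 (-1.50, adjusted p = 0.0975) and Trim16 (-1.34, adjusted p = 0.325), none of which passed. Rp1, known from photoreceptors, was at 5.06 to 5.25 in vehicle and 3.42 to 3.85 in treated mice. Among the genes called only without pair 4, Thrsp (-3.12, adjusted p = 0.0373) and Tmem135, a peroxisome-related membrane protein named after its values were seen (-1.18, adjusted p = 0.0188), rested on treated mouse 3. Without pair 3 they were at 0.34 and -0.02.

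Bile acid genes gave no call apart from Abcc3. Of 17 bile acid synthesis genes none passed in limma, with 1 higher and 1 lower at an unadjusted p under 0.05 and a median of 0.08 (-0.10 without pair 4). Cyp7a1, the rate-limiting enzyme, was at 6.01, 3.66, 5.76 and 3.24 in vehicle and 5.37, 5.90, 4.22 and 5.37 in TAK-875 mice. It was higher in 2 pairs and lower in 2 (mean 0.55, SD 1.92, adjusted p = 0.843). Cyp8b1, which sets the cholic acid share, differed by -0.03 (SD 1.08, adjusted p = 0.988). Abcb11, the canalicular bile salt export pump, was at 10.18, 10.31, 10.11 and 10.13 in vehicle and 10.01, 9.65, 9.30 and 9.68 in TAK-875 mice. It was lower in all 4 pairs without overlap, but the difference of -0.52 (SD 0.28) did not pass in limma (adjusted p = 0.588). The standard error of limma, pooled from the spread of pairs within each of the lines, was 0.35. The canalicular pump Abcc2 (0.45, adjusted p = 0.467) and the bile acid uptake carrier Slc10a1 (0.27, adjusted p = 0.544) did not pass.

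Cholesterol synthesis had 16 members and no call (4 lower and 0 higher at an unadjusted p under 0.05 in limma). Its pair medians were 0.02, 0.81, -2.53 and -0.21, so that pair 3 alone was far below. Sqle and Cyp51, which act after squalene is made, were at 4.80 and 4.31 in TAK-875 mouse 3 and at 8.45 or more in the other 3 treated mice. Dio1, the deiodinase that activates thyroid hormone, was at 9.70, 9.72, 9.44 and 8.93 in vehicle and 8.62, 9.39, 7.27 and 9.84 in TAK-875 mice. Its difference of -0.66 (adjusted p = 0.567) compares with -1.22 in the other lines, where no line mean was above 0. Among the 30 genes of the unfolded protein response and the 21 interferon-stimulated genes, none passed in limma (3 lower and 1 higher at an unadjusted p under 0.05, respectively).

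Set against the mean of the 43 other lines, the CC008 response was larger for 13 genes (0.143%) and smaller for 0 (0%; 287 at an unadjusted p under 0.05 in limma). The 13 include Eci1, Ephx2, Cyp4a10, Ephx1, Gm5617, Cyp2d10, the endoplasmic reticulum protein Reep3, the glycosylphosphatidylinositol phospholipase Gpld1 and the splicing protein Snrpb; Gpld1, Snrpb and Cyp2d10 were named after their values were seen. Without pair 4 no gene was called higher (0%) or lower (0%), with 196 and 162 at an unadjusted p under 0.05. All 13 also had a lower vehicle level in CC008 than in the other lines, and vehicle mouse 4 was lowest of the 4 in 12. The response and the vehicle comparison share those vehicle arrays. The fit without the replicate block called 7 higher.

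Spp2, a secreted bone-matrix protein made by the liver, was at 9.49, 9.61, 9.86 and 8.15 in vehicle and 9.71, 9.85, 10.17 and 10.17 in TAK-875 mice. Its response exceeded that of the other lines by 0.84 (SE 0.13, adjusted p = 2.56e-05), from 0.70 in CC008 and -0.14 elsewhere. Most of this came from pair 4, and the CC008 change was 0.26 without it. Cryl1, a crystallin-like dehydrogenase of the uronate cycle, was at 7.32, 7.50, 7.24 and 5.81 against 7.61, 7.68, 7.93 and 7.67, and exceeded the other lines by 1.03 (SE 0.22, adjusted p = 0.0134). Its own change of 0.76 did not pass (adjusted p = 0.0832), while the other lines averaged -0.28.

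Reep3 rose by 0.97 (adjusted p = 0.00394) from 5.05, 5.23, 4.50 and 5.65 to 5.83, 5.64, 6.57 and 6.26, with overlap at 5.64 and 5.65. The other lines averaged -0.04, and the difference was 1.01 (SE 0.21, adjusted p = 0.00771). It is the gene of the 13 in which vehicle mouse 4 was not lowest: without pair 4 the difference was 1.13 (adjusted p = 0.0697). Rusf1, a RUS-family membrane protein, was at 4.22, 3.65, 4.48 and 3.54 against 4.46, 4.92, 4.94 and 5.53. It overlapped slightly and exceeded the other lines by 0.99 (SE 0.18, adjusted p = 0.000536). Gstt1, a sister of Gstt2, was at 6.92, 6.46, 6.90 and 4.93 against 6.51, 6.89, 8.22 and 6.97. Pair 1 was slightly lower and pair 4 was raised from the lowest level. Its response exceeded the other lines by 1.01 (SE 0.18, adjusted p = 0.000536 in limma). The lines nearest to CC008 in vehicle Gstt1, CC030/GeniUnc (6.32) and CC022/GeniUnc (6.37), rose as well, by 0.76 and 0.39, against 0.85 in CC008. The next, CC025/GeniUnc (7.33) and CC017/Unc (7.48), changed by -0.28 and 0.06. Without pair 3 only Spp2 (0.97) and Rusf1 (1.17) of the 13 kept the call.

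Cyp4a10 exceeded the other lines by 0.91 (SE 0.20, adjusted p = 0.0166), Gm5617 by 0.78 (SE 0.18, adjusted p = 0.018), Ephx1 by 0.62 (SE 0.15, adjusted p = 0.0414) and Eci1 by 0.57 (SE 0.13, adjusted p = 0.0135). For Eci1, Cyp4a10, Ephx1 and Ephx2, 1 or more other lines had a larger change than CC008, as the plot of line means shows. Over all genes, the CC008 changes correlated with the mean changes of the other lines at r = 0.24, and at 0.35 without pair 4; genes are not independent replicates. By pair r was 0.20, 0.16, 0.26 and -0.03, and over the 44 lines it ran from 0.06 to 0.53 with a median of 0.34, CC008 being 32nd. By its count of response calls CC008 was 15th of the 44 lines, the others ranging from 0 to 1403 with a median of 27.

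**Figure D4:**
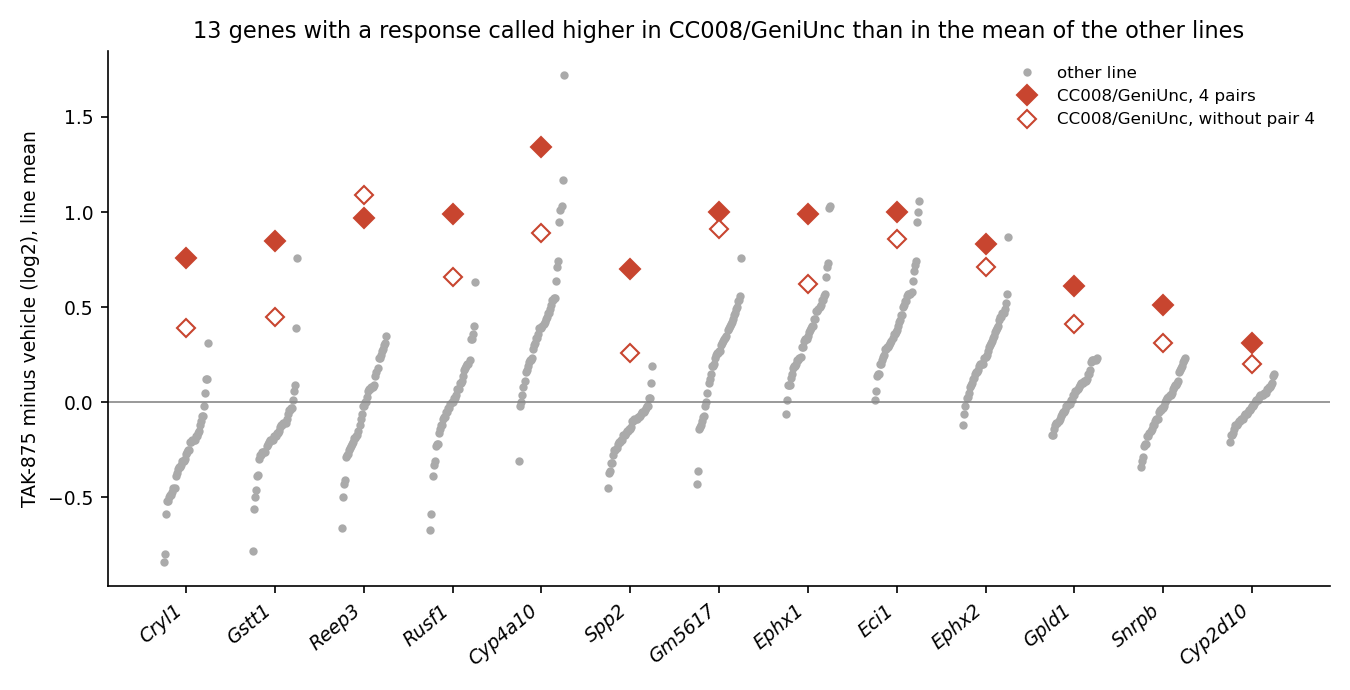
Mean TAK-875 minus vehicle difference (log2, vertical axis) of the 13 genes whose response was called higher in CC008 than in the mean of the other lines: each grey point is another line, the filled diamond is CC008 with 4 pairs and the open diamond CC008 without pair 4. CC008 is above every other line for Spp2 (0.70) and Rusf1 (0.99), and several lines approach or pass it for Eci1 (1.00); the open diamond is lower than the filled one except for Reep3 (1.09).

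The vehicle liver of CC008 differed from the mean of the other lines in far more genes: 1185 were higher (13%) and 1808 lower (19.9%). Without vehicle mouse 4 there were 670 higher (7.37%) and 1038 lower (11.4%), and 1592 of the 2993 called genes kept the call. With each array centred on its median the counts were 1463 and 1507. Differences of at least 1 log2 unit numbered 112 higher and 168 lower. CC008 had the highest mean of the 44 lines in 314 genes and the lowest in 387, and by its count of calls it was the 7th of the 44 lines. Lines of different ancestry can carry sequence variants under a probe, and a weaker signal from such a variant and a lower expression cannot be told apart with these values. Of 992 called genes with several probe sets, 469 had another set called the same way and 63 had a set called the opposite way.

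Most of the genes highest in the CC008 vehicle liver relative to the others were high in some other lines too: in 5 of the 8 largest, another line was higher. Obp2a, an odorant-binding lipocalin, stood at 11.80, 12.23, 10.99 and 12.02, against a mean of 5.24 over the other lines, whose means ran from 2.70 to 11.97. The difference was 6.52 (SE 0.36, adjusted p = 1.3e-34), and a single line had a higher mean. Tff3, a trefoil peptide of mucosal repair, was at 10.81, 11.08, 11.30 and 9.89 against 6.27 (difference 4.50, SE 0.32). Cav1, the caveolae protein, was at 9.45, 9.67, 7.94 and 9.38 against 4.79 (4.33, SE 0.32). Both were also high in the treated CC008 mice, by 4.76 and 4.31 over the treated mice of other lines. Akr1c18, a progesterone-inactivating reductase, differed by 3.86, and Ubash3a, a regulator of T-cell receptor signalling, by 2.83, from 5.46 against 2.63. Akr1c18 was at 9.79 in CC008 and also high in many other lines, from CC041/TauUnc (8.42) to CC035/Unc (10.29). The rest were far lower, such as CC001/Unc (4.01).

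In 3 of the 8 largest, CC008 was the highest line. Lpl, the lipase that frees fatty acids from circulating triglyceride and is usually low in adult liver, was at 9.90, 9.68, 9.35 and 8.07 against a mean of 6.54 and a highest other line of 8.69. The difference was 2.71 (SE 0.36, adjusted p = 6.8e-10) and 3.10 without mouse 4. Rcan2, a calcineurin regulator, was at 8.26, 6.73, 7.42 and 9.35 against 4.54, and Nfkbiz at 7.43, 7.94, 7.14 and 10.27 against 5.12. Both were highest in mouse 4, and the differences of 3.40 and 3.07 became 2.93 and 2.38 without it, still called.

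Among the genes lowest in CC008, several encode conjugating or oxidising enzymes. Gstt1 was at 6.92, 6.46, 6.90 and 4.93 against a mean of 10.61, with the lowest other line at 6.32 (difference -4.31, SE 0.13, adjusted p = 3.4e-61). Its place as the lowest line rested on mouse 4: the mean of mice 1 to 3 was 6.76, the 3rd lowest, and the difference was -3.85. The glycosyltransferase Ugt3a2 was at 3.71 to 4.20 against 8.07, the P450 Cyp4f14 at 4.55 to 5.57 against 9.15, and Cyp2c39 at 2.95 to 3.27 against 7.09. At least 2 other lines had lower means in each case. For Ugt3a2 many other lines were similarly low, such as CC001/Unc (4.62), and the rest high, such as CC004/TauUnc (11.15). The mean of 8.07 thus lies between these levels. Cyp2c39 was also as low in several other lines, such as CC007/Unc (3.11) and CC023/GeniUnc (2.82). Tmem14c, a transporter needed for haem synthesis, differed by -3.96, and Gm4788, a complement factor H-related gene, by -4.36. Other lines were lower for both. Tmem14c was at 6.64 in CC008 and 6.15 in CC004/TauUnc, and Gm4788 at 3.19 in CC008 and 2.75 in CC037/TauUnc. CC008 was the lowest of all lines for the interferon-induced Ifi27 (-3.75, from 4.31 to 5.44 against 8.68) and for Rusf1 (-3.59, from 3.54 to 4.48 against 7.57).

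**Figure D5:**
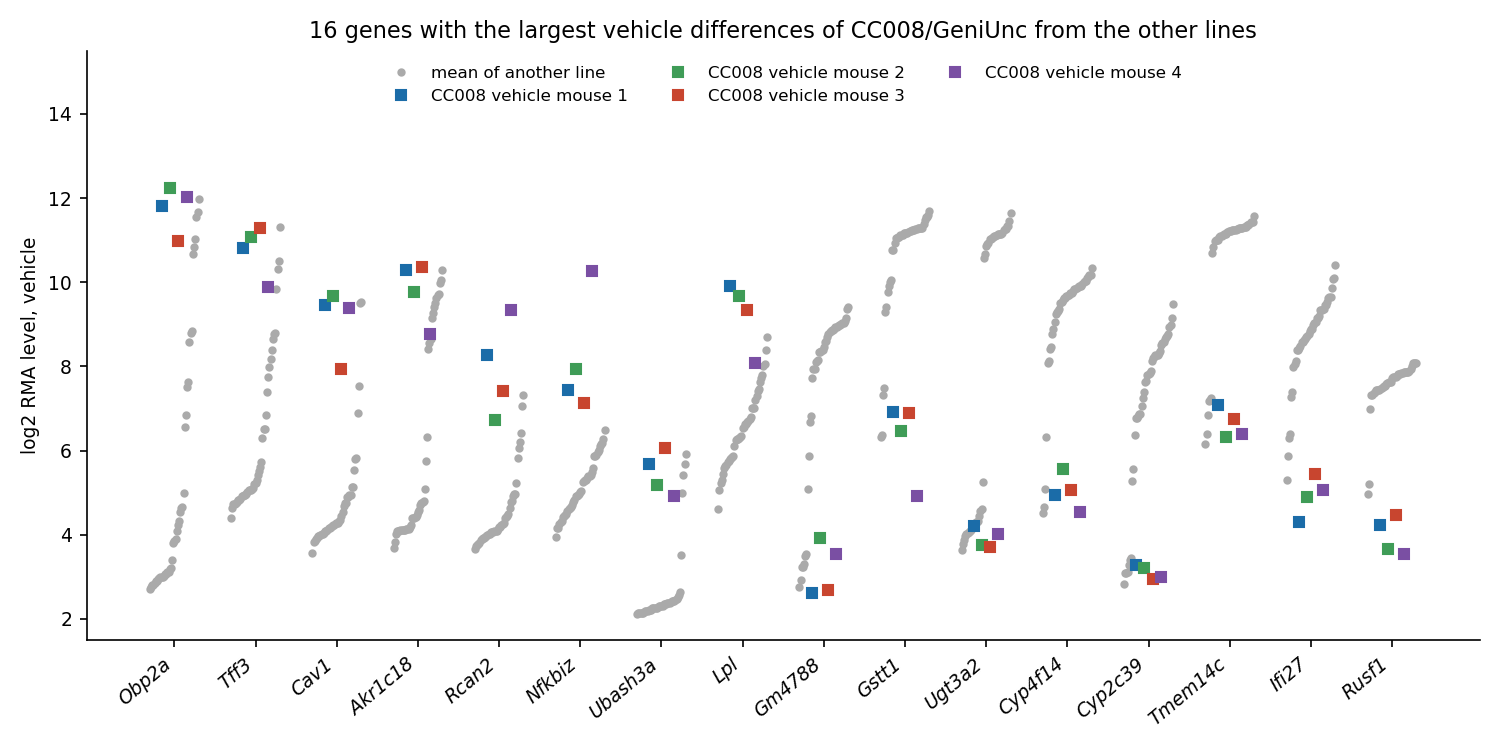
Vehicle log2 RMA level (vertical axis) of the 8 genes most above and the 8 most below the other lines in CC008: coloured squares are the 4 CC008 vehicle mice, grey points the means of the 43 other lines in rising order. For Obp2a, Tff3 and Ugt3a2 some grey points reach the CC008 level, whereas for Ifi27 and Rusf1 no grey point lies below the CC008 mean (4.93 and 3.97).

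Of 21 interferon-stimulated genes, 16 were lower and 1 higher in the CC008 vehicle liver, where 19.9% of all genes were lower and 13% higher. The list median was -0.78 against -0.03 over all genes. Without mouse 4, 11 were lower and 1 higher, against 11.4% and 7.37% of all genes. The immunoproteasome subunits Psmb8 (5.91, 5.79, 6.30 and 5.21 against 7.97, difference -2.17) and Psmb9 (-1.71) and the receptor transporter Rtp4 (-1.93) had their lowest means in CC008. All 4 CC008 mice were below the lowest other line mean for Psmb8, 6.73. The deISGylase Usp18 (-1.45) and the transcription factor Irf7 (-1.31) were lower too. The member that was higher was Stat2, the signal transducer of interferon receptors, at 7.88, 7.74, 7.74 and 8.81 against 6.68, and CC008 was its highest line (difference 1.37); without mouse 4 the difference was 1.11 and CC008 was the 7th highest. Psmb8, Psmb9, Rtp4, Usp18 and Stat2, and H2-Eb1 below, were named after their values were seen. Class II antigen presentation was split, with 3 of 6 higher and 2 lower: H2-Ab1 was higher by 1.27 and H2-Eb1 differed by -2.24, at 4.76, 4.41, 3.93 and 4.39 against 6.61.

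Several stress and metabolic lists held vehicle calls that were fewer without mouse 4, when 7.37% of all genes were called higher and 11.4% lower. With all 4 mice those shares were 13% and 19.9%. Of 30 unfolded protein response genes 20 were higher and 1 lower, but 3 and 0 without mouse 4. Its chaperone Hspa5 was at 10.90, 11.04, 10.96 and 11.58 against 10.46 (difference 0.66, adjusted p = 0.0053; 0.51 and 0.099 without mouse 4). Of 34 acute-phase genes 11 were higher and 3 lower, against 2 and 2 without mouse 4. NRF2 targets were lower in 12 of 25 and bile acid synthesis genes in 9 of 17, with none higher, and 4 in each list were called lower without mouse 4. The counts of the acute-phase, unfolded protein response and NRF2 lists without mouse 4 were thus near the shares over all genes. Nqo1, at 3.97, 3.76, 4.67 and 2.88 against 6.06, was lowest of the 44 lines (-2.24, and -1.93 without mouse 4). Cyp8b1 (-1.14) was also lowest, or the 2nd lowest without mouse 4, and Cyp7a1 differed by -2.21 (-1.74 and adjusted p = 0.054 without mouse 4). Of 30 proteasome genes 12 were lower and 1 higher, and 11 and 0 without mouse 4. Psma7, at 9.36 to 9.56 against 10.03, had its lowest mean in CC008. Mlxipl had its highest, at 10.59 to 10.82 against 9.99 (0.75, adjusted p = 8.8e-10).

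For several genes the vehicle level and the response point in opposite directions. Nqo1, Gstt1, Rusf1 and Reep3 were lowest of the 44 lines in vehicle (Gstt1 the 3rd lowest without mouse 4) and rose with TAK-875, and the treated CC008 mice still differed from the treated mice of other lines by -1.35, -3.30, -2.60 and -1.71. Mlxipl was highest in vehicle and fell, and its treated level lay 0.20 above that of the others. The vehicle mice enter both values, so a low or high vehicle mean moves both.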

How the data were processed

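Each array measured liver RNA of 1 mouse. The authors deposited log2 values per probe set, made with Affymetrix Power Tools and RMA per the submitters' processing notes; their versions were not given in the sources used here. RMA is usually fitted across arrays and summarises the probes of a set into 1 value, which compresses differences of dim genes. Of 16397 probe sets, 13083 named 1 gene, 261 several and 3053 none in the platform annotation; genes were named from the first kind, and the probe set with the highest mean stood for each of 9093 genes.

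Differences within the 171 study pairs were fitted with limma 3.58.1 (R 4.3.3), with a mean per line, eBayes with an intensity trend, and 127 residual degrees of freedom, so the spread is shared by all 44 lines. CC008 was tested against 0 and against the unweighted mean of the other 43 lines. Vehicle levels were likewise tested against that mean. The spread used is that within lines, so a small p-value does not show that CC008 is exceptional among the lines. Benjamini-Hochberg adjustment ran over all genes, at 0.05. The labels say that mice were dosed in pairs; deviations from group means within the 4 CC008 pairs correlated at 0.02, -0.11, -0.10 and -0.09. The script recovered changes planted in simulated data, drawn as independent normal values without an outlying mouse. That check does not cover livers that stand apart, as vehicle mouse 4 and TAK-875 mouse 3 did. Tables and plots used Python 3.11.15, numpy 2.4.6, pandas 2.3.3 and matplotlib 3.10.9, and promoter windows came from RefSeq.

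Genes named were the 12 largest rises and falls past the threshold with 1 sign in all 4 pairs (falls were filled up to 6 with genes not passing), the 8 largest in each direction of the other comparisons, up to 4 per list, and 12 measured genes of bile acid, PPARA, clock and thyroid biology whatever their result (Cyp4a14 was not analysed here). Ephx2, Tmem135, Cyp2d10, Slc25a20, Ech1, Apoa5, Cyp2e1, Psmb8, Psmb9, Rtp4, Usp18, Stat2, H2-Eb1, Snrpb, Gpld1, Hspa5 and Alb were named after their values were seen. The line, the 40 gene lists and the tests were chosen with earlier results of these data known. Lists share members (Nqo1 and Nr1i3 are on more than 1). Alternatives were each pair left out, no pairing, CC008 arrays alone, other scalings, probe set means, a filter on dim genes, no trend, and arrays of low correlation left out; leaving out the array of vehicle mouse 4 alone was added after seeing the data.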

Additional observations from a re-analysis of the deposited data

Results flagged for a closer look

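In 12 of 138 genes and groups of 4 CC008 mice examined, a single mouse stood far from the other 3 by Dixon's gap ratio; chance flags about 1 in 20. In 6 of the 12 it was vehicle mouse 4: Eci1 (9.61), Abcc3 (7.71), Decr2 (7.44), Slc25a20 (9.62) and Cryl1 (5.81) were low there and Stat2 (8.81) was high. In 3 it was TAK-875 mouse 3, high for Gm5617 (8.31), Cyp4a10 (12.83) and Nqo1 (6.60). The others were Cav1 in vehicle mouse 3 (7.94), Lpl in TAK-875 mouse 1 (10.10) and Tmem14c in TAK-875 mouse 4 (7.41).

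The response of 13 genes differed between CC008 and the mean of the other lines by the limma contrast itself. The differences were 1.03 for Cryl1, 1.01 for Reep3, 1.01 for Gstt1, 0.99 for Rusf1, 0.91 for Cyp4a10, 0.84 for Spp2 and 0.78 for Gm5617. They were 0.62 for Ephx1, 0.57 for Ephx2, 0.57 for Eci1, 0.57 for Gpld1, 0.53 for Snrpb and 0.33 for Cyp2d10. None of the 13 passed without pair 4.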

How the results depend on the processing

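The count of genes that rose (63) was 40 with no replicate block, 0 with only CC008 arrays (336 higher and 353 lower at an unadjusted p under 0.05 in limma), 4 with the array of vehicle mouse 4 left out, and 5 to 122 with each pair left out in turn. The count that fell (3) was 0 with only CC008 arrays, 8 after quantile normalization, 5 without dim genes, 0 without the array of vehicle mouse 4, and 2 to 15 with each pair left out. Of the paired differences from the other lines, 13 higher became 7 with no replicate block, 4 with centred arrays, 29 without arrays of low correlation, 1 without the array of vehicle mouse 4, and 0 to 60 with each pair left out. The 0 lower became 1 after quantile normalization, 1 with probe set means, 5 without arrays of low correlation, and 0 to 9 with each pair left out. Vehicle calls ran from 670 to 988 higher and 1038 to 1875 lower with each mouse left out. For 84 values of named genes, 955 alternative values kept their direction and side of the threshold in 782 cases, lost the call in 164 and gained it in 5. The direction reversed in 4, none of them a call: with pairs left out in turn Thrsp ran from -3.23 to 0.34 (without pair 3), Pdk4 from -0.11 (without pair 3) to 0.66, Cyp7a1 from -0.02 (without pair 2) to 1.24 and Cyp8b1 from -0.45 to 0.44 (without pair 3). The cause of these shifts was not tested. A group of 4 mice limits what could be detected. The response calls also rest on the spread borrowed from 44 lines, since CC008 arrays alone gave 0 higher and 0 lower.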

Other observations

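Some gene groups outside the comparisons above varied between the CC008 mice. Male-biased liver genes averaged 8.93, 9.08, 7.36 and 8.94 in TAK-875 mice 1 to 4, and the steroid dehydrogenase Hsd3b5, which is high in male liver, was at 10.42, 11.18, 10.90 and 6.80 in vehicle and 10.68, 10.93, 3.65 and 11.09 in TAK-875 mice. Both livers that stood apart were thus low for this gene. In TAK-875 mouse 3 the hormone Fgf21 was at 6.27, against 2.60 to 3.42 in the other 3, and the peroxisomal thioesterase Acot3 at 9.54, against 3.81 to 4.58. Cyp2c70, which makes muricholic acids in mice, was at 9.69 in that mouse and at 12.22 to 12.62 in the others, and all 167 TAK-875 mice of the other lines were above it.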
